A study of Mus musculus with 4 samples.

Results

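Nuclei with transcripts of the dopamine D3 receptor gene Drd3 were picked out of single-nucleus RNA sequencing of mouse brain, and 662 of 50595 nuclei that passed the filters met the rule. The members were chosen by measured values: at least 500 unique molecular identifiers (UMIs, each counting 1 captured transcript), at least 300 genes, at most 5% mitochondrial UMIs, at least 1 Drd3 UMI, at least 3 of the 7 genes Drd3, Prok2, Pkib, Gpr149, Adamts19, Stac and Lrrc38 detected, and at most 1 UMI of Slc17a7, the vesicular glutamate transporter of cortical neurons. All 4 libraries came from wild-type C57BL/6 mice aged 10 weeks, from brain without cerebellum that was frozen on dry ice, and were made with a droplet kit that tags the 3′ end of transcripts. Brains were taken either post-mortem, after cervical dislocation, or by craniotomy from animals deeply anaesthetised with isoflurane, and the extracted nuclei were either left unfixed or fixed in methanol. Each of the 4 combinations was 1 library, which the study's design text describes as having no biological replicate, so harvest and fixation were compared without a test. Whether 1 brain gave both the methanol and the unfixed nuclei of a harvest is not stated in the labels. Levels are given as CPM, the UMIs of a gene per 1000000 UMIs of the summed nuclei. Eif2s3y, a gene of the Y chromosome, was at 111 and 132 CPM in the members of the unfixed and methanol post-mortem libraries. It had no UMI in the members of either anaesthetised library, so the sex of the animals appears to differ with harvest. Harvest thus cannot be told apart from sex or animal, nor, with 1 library per group, from dissection.

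Drd3 encodes a receptor that lowers cyclic AMP through inhibitory G proteins and binds dopamine with high affinity. In rodents it is known for the islands of Calleja, dense clusters of very small GABAergic granule cells in the olfactory tubercle and ventral striatum, and it is also made in part of the medium spiny neurons of the nucleus accumbens. Medium spiny neurons are the projection neurons of the striatum, and most make either the D1 receptor (Drd1) with the tachykinin precursor Tac1 or the D2 receptor (Drd2) with the enkephalin precursor Penk. Prok2 encodes prokineticin 2, a secreted peptide with G protein-coupled receptors. Pkib is an inhibitor of protein kinase A, Gpr149 an orphan receptor, Adamts19 a secreted metalloprotease, Stac an adaptor of L-type calcium channels and Lrrc38 an accessory subunit of BK potassium channels.

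The promoters of the receptor, of the peptide that gives these neurons their name and of the peptide whose level differed most with fixation are shown as the sequence at the annotated starts of these 3 genes. They were taken from RefSeq (GRCm38.p6, the assembly also called mm10), from 250 bases before to 50 bases after the annotated start, 5′ to 3′ on the strand of the gene, and capitals mark matches to 5 short motifs searched on both strands.
Drd3: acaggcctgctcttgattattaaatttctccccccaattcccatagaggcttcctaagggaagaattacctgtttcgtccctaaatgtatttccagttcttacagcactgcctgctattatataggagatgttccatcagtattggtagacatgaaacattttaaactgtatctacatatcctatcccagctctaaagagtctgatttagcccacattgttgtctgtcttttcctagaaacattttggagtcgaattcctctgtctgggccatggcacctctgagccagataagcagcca
Prok2: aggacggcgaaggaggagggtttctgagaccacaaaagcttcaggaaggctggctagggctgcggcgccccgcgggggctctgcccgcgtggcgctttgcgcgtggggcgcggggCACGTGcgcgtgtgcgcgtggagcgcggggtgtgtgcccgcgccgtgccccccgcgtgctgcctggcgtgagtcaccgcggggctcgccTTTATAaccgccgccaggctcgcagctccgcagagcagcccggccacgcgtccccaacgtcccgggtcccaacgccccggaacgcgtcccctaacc
Tac1: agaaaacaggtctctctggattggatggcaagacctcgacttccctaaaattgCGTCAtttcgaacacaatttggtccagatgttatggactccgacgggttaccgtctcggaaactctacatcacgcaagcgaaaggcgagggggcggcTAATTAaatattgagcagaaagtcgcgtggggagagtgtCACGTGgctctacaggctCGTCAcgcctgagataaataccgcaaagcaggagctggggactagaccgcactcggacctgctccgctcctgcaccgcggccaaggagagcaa
The Drd3 window is chr16:43761971-43762270 on the plus strand and held none of the 5 motifs; the RefSeq start it is built on lies inside the span of the gene in GENCODE, given below, and not at its first base. The Prok2 window is chr6:99726343-99726642 on the minus strand and held an E-box (CACGTG) starting 135 bases before the start and a TATA box (TATAAA) on the other strand starting 46 bases before it. The Tac1 window, chr6:7554811-7555110 on the plus strand, held an E-box 61 bases and a homeobox core (TAATTA) 100 bases before the RefSeq start. It also held the core of a cyclic AMP response element (TGACG), on the other strand, 197 and 43 bases before that start. In GENCODE Tac1 begins earlier, at chr6:7554879. The E-box, the homeobox core and the nearer response element core thus lie inside the span of the gene there. Among 32851 RefSeq promoters of the same length, 7.15% held the E-box, 5.29% the homeobox core, 13.6% the TATA box, 20.8% the response element core and 3.65% the forkhead core TGTTTAC, which none of the 3 windows held. RefSeq entries were found for 5 of the 7 rule genes.

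The deposited matrices held 7650 to 17862 barcodes and 64312917 to 82408017 UMIs per library, and the median nucleus had 3206 UMIs in the anaesthetised unfixed library and 8380 in the anaesthetised methanol library. The members numbered 247 in the post-mortem unfixed, 228 in the post-mortem methanol, 99 in the anaesthetised unfixed and 88 in the anaesthetised methanol library, and every list of 4 values that follows keeps this order. They made up 1.73% (95% Clopper-Pearson interval 1.52 to 1.95), 2.11% (1.85 to 2.4), 0.554% (0.451 to 0.675) and 1.15% (0.924 to 1.42) of the nuclei. Both post-mortem shares lay above both anaesthetised shares, with intervals that did not overlap. With 2 of the 7 genes required this order did not hold, since the post-mortem unfixed share, 3.63% (3.33 to 3.95), lay below the anaesthetised methanol share, 3.82% (3.4 to 4.27). These intervals cover counting error only. The members' median depth was 2545, 3546, 3498 and 6532 UMIs, and 3969608 UMIs were summed over all of them. A barcode was shared by members of 2 libraries in 1 case, between the post-mortem libraries, and 19 members had a barcode that also occurred in another library.

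The 7 rule genes are described first, without a test, because they chose the nuclei. Beside Drd3, Gpr149 was found in 80.8% of members, Stac in 68.4%, Pkib in 64.7%, Prok2 in 25.1%, Adamts19 in 23.6% and Lrrc38 in 18.4%. Drd3 rested on a single UMI in 328 of 662 members, on 2 in 191, on 3 in 77 and on more in 66. Drd3 (chr16:43754026-43822932, plus strand), Pkib (chr10:57631981-57741112, plus strand), Gpr149 (chr3:62529077-62605140, minus strand) and Lrrc38 (chr4:143349757-143371032, plus strand) have no annotated gene on the opposite strand in mm10. Prok2 (chr6:99711299-99726392, minus strand) overlaps Gm26748 and Stac (chr9:111561437-111690348, minus strand) overlaps Gm43236 on the other strand, and the strand of the counting is not given in the sources used here, so reads of such pairs cannot be told apart. The same holds for Acvrl1, Adora1, Akap7, Akap9, Aldh1l1, Cacna2d3, Chrm3, Cux2, Drd5, Ebf1, Gabra4, Gad1, Gli3, Glp2r, Gnal, Gpr158, Grin2b, Hrh3, Htr1b, Ikzf2, Il20ra, Itpr1, Jun, Kcnj6, Kcnma1, Kcnt2, Lrrc55, Macrod1, Map2, Mdga1, Mindy4b-ps, Ncam1, Nrn1, Nrp2, Pde10a, Penk, Pkig, Ppp1r1b, Rarb, Rbfox3, Reln, Rgs12, Ryr3, Shisa6, Slc32a1, Slirp, Sp9, Tafa1, Tnr, Tspear and Upb1 below.

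All nuclei of the 4 libraries were grouped by expression with the 7 rule genes left out, and 366 members, 55.3%, fell into 1 of 32 clusters. That cluster held 653 nuclei in all, 285, 212, 100 and 56 by library, and Drd3 was detected in 66.0% of them. Prok2, Lrrc38, Fam122b, Ptpn14, Drd3, Adamts19, Csrp2, Pkib, Stac, Gpr149, Sntb1 and Frmpd1 led it, in that order of fold over all other nuclei. The 7 rule genes were thus all among its 12 leading genes. The cluster was picked as the one with the most members, and 56.0% of its nuclei met the rule. That choice largely fixes that the rule genes lead, so their lead is no check of the label. The 366 members inside the cluster are called the in-cluster members below, and the other 296 the outlying members. Every gene contributed to the grouping or varies with it, so values of the in-cluster members are descriptions.

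The rule genes were more abundant in the in-cluster than in the outlying members. Drd3 was at 390, 289, 336 and 265 CPM over all members, at 780, 647, 1021 and 564 CPM in the in-cluster members and at 208, 146, 209 and 196 CPM in the outlying ones. Prok2 stood at 203, 137, 119 and 113 CPM in the in-cluster members, Pkib at 496, 643, 597 and 670 CPM and Gpr149 at 607, 884, 849 and 910 CPM. Adamts19 was at 168, 187, 119 and 120 CPM, Stac at 712, 549, 915 and 376 CPM and Lrrc38 at 92.1, 97.7, 119 and 52.7 CPM there. In each library each of these values was above that over all members. Oligodendrocytes, which should lack the receptor, showed the background: in nuclei with at least 3 of 5 oligodendrocyte genes, among them Mbp, Mog, Mag and Mobp, Drd3 was at 10.9, 5.89, 10.4 and 11.8 CPM. Of these 7844 nuclei 21.6% were marked as doublets (2 nuclei in 1 droplet) and 303 also met the rule for a medium spiny type given below, so this background can hold transcripts of medium spiny neurons.

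The threshold of 3 genes divided nuclei of different make-up. Of 1320 nuclei with Drd3 and none of the other 6 genes, 9 lay in the cluster, or 0.682%. With 1 other gene, just outside the threshold, 53 of 980 did, or 5.41%, at a median of 6637 UMIs. With 2 others, just inside it, 117 of 310 members did, or 37.7%, at a median of 4813.5 UMIs. The share was 67.6% of the 204 members with 4 genes, 75.7% of the 115 with 5 and 73.3% of the 30 with 6, while 2 of the 3 members with all 7 genes lay there. The cut on Slc17a7 set aside 89 nuclei that otherwise met the rule, of which 3 lay in the cluster, with a median of 40072 UMIs and 74.2% marked as doublets.

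**Figure D1:**
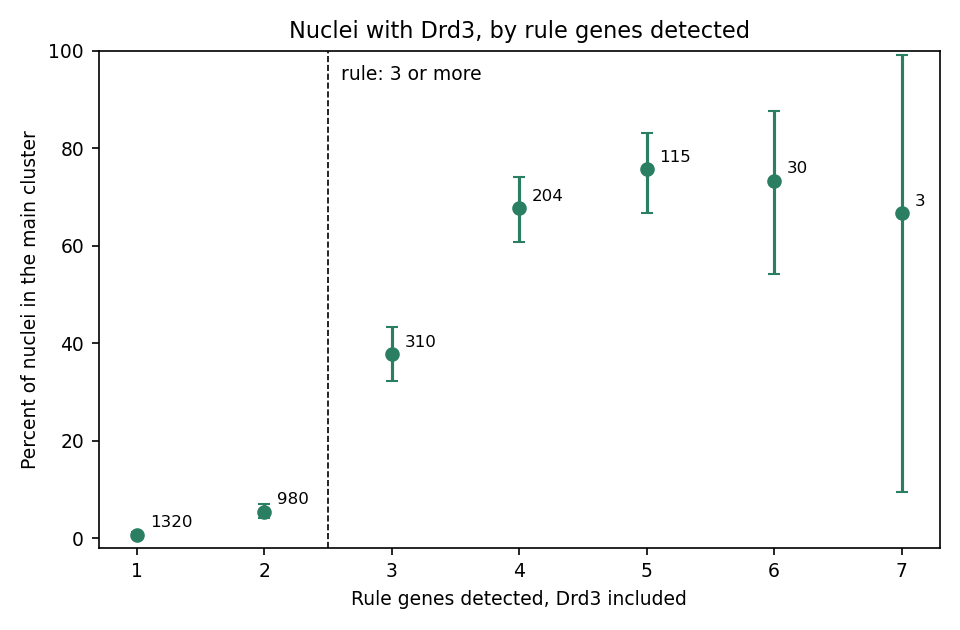
Percent of nuclei in the main cluster, led by Prok2 and Lrrc38 (vertical axis), by the number of the 7 rule genes detected (horizontal axis), for nuclei with at least 1 Drd3 UMI. Points are percentages with 95% exact binomial intervals, the number beside each is its count of nuclei and the dashed line is the threshold, across which the share goes from 5.41% to 37.7%.

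The label of D3 granule-type neurons was set against the 4 genes that mark them, Drd3, Prok2, Gpr149 and Adamts19, which the rule also used. In Drd1-type medium spiny nuclei, defined below, Prok2 stood at 0.97 to 5.31 CPM, Adamts19 at 2.18 to 5.31 CPM and Gpr149 at 45.9 to 85.7 CPM. The rule fixes that the members are high in these genes, so their levels are no check of the label. The members as a whole were a mixture. The in-cluster members were shallow, with medians of 2129, 2791, 1578 and 2643 UMIs, and 1.37% were marked as doublets. The outlying members had medians of 6398.5, 9353, 5711.5 and 9585 UMIs, 43.6% of them were marked as doublets, and they gave 73.9% of all UMIs of the members. The in-cluster members were 60.3%, 60.1%, 41.4% and 44.3% of the members by library, so that the mix differed between the harvests. They were 1.04%, 1.27%, 0.230% and 0.510% of all nuclei. Neither the size of the cells nor their place in the striatum can be read from these data.

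Of the outlying members, 74 lay in a cluster of 3488 nuclei led by Vmn1r206, Upb1, Dsg1c, Ntn1 and Adam12 with Drd3, Pdyn and Drd2 among its leading genes, in which Drd3 was found in 26.3% of nuclei. Its 74 members, 21.6% of them marked as doublets, had Pde10a, the phosphodiesterase of medium spiny neurons, at 2239 CPM, Meis2 at 1046 CPM, Penk at 602 CPM and Drd2 at 102 CPM, against 423, 78.0, 75.1 and 4.82 CPM in the in-cluster members. A further 24 members, none marked as a doublet, lay in a cluster led by Npffr2, Mdfic, Tshz1, Chst9, Eya2 and Foxp2, with Foxp2 at 2992 CPM, Pde10a at 3272 CPM and Drd1 at 188 CPM. Members of these clusters thus carried Drd3 beside genes of medium spiny neurons. Another 62 members, 25.8% of them marked as doublets, lay in a cluster led by Sim1 and Irs4 and had Pde10a at 681 CPM. Of the 43 members in a cluster with the oligodendrocyte gene Mbp at 769 CPM, 90.7% were marked as doublets, as were 84.6% of 13 members in a cluster with the astrocyte genes Etnppl, Fgfr3 and Agt among its leading genes. The remaining 80 members were spread over other clusters, and 58.8% were marked as doublets.

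**Figure D2:**
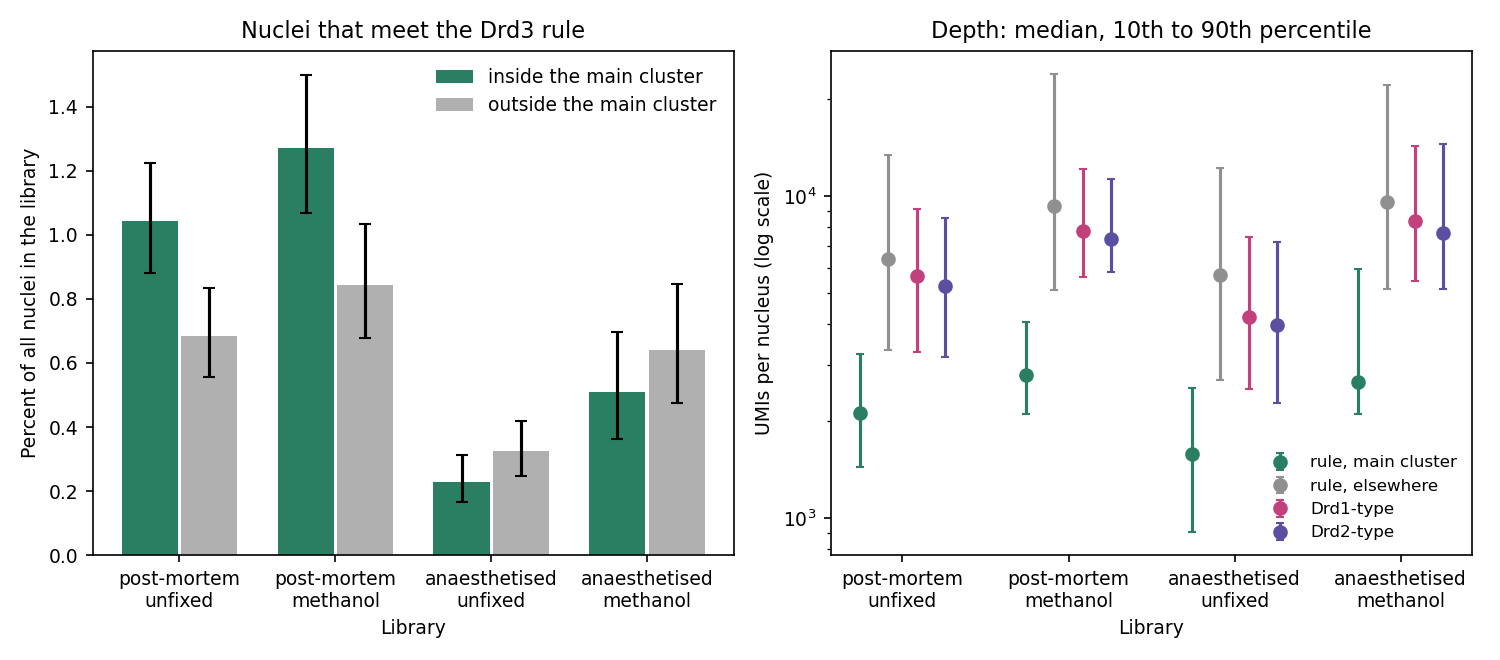
Left, percent of all nuclei of each library that met the rule, inside and outside the main cluster (bars from 0, with 95% exact binomial intervals). Right, UMIs per nucleus on a logarithmic axis for in-cluster and outlying members, Drd1-type and Drd2-type nuclei, as medians with the 10th to 90th percentile: the in-cluster medians run from 1578 to 2791 UMIs and the outlying medians from 5711.5 to 9585.

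The genes that the rule did not use were then compared with those of medium spiny neurons of the same libraries. Drd1-type nuclei (2162) had at least 3 of 5 striatal genes detected, among them Ppp1r1b, Rgs9, Gng7 and Pde10a, a Drd1 UMI and none of Drd2, Adora2a or Drd3. Drd2-type nuclei (2421) had the same striatal genes, a Drd2 UMI and none of Drd1 or Drd3. UMIs were summed per population and library and fitted with edgeR's quasi-likelihood test with library as a block, and p-values were adjusted over all 12965 genes by the Benjamini-Hochberg method. The replicates of this test are the 4 libraries, which differ in harvest and fixation, so its p-values measure the spread over these libraries. The members' sums mix in-cluster and outlying nuclei, and fewer nuclei with a transcript cannot be told apart from less of it per nucleus. Against Drd1-type nuclei 1484 genes were higher, 11.4% of those tested, and 1702 lower, 13.1%. Against Drd2-type nuclei 1622 were higher, 12.5%, and 1798 lower, 13.9%. The shares in both comparisons are the background for every count of list genes below. The test scales each sum by trimmed means, which puts its log2 fold changes below the raw CPM ratios by 0.11 to 0.20, the median log2 CPM ratio over 8700 genes, so changes are relative to that shift. In raw CPM the in-cluster members lay above Drd1-type nuclei by a median log2 ratio of 0.17, 0.14, 0.25 and 0.16. Over Drd2-type nuclei the median was 0.21, 0.18, 0.29 and 0.19. Values of in-cluster members below are raw and keep this in-cluster shift.

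The median Drd1-type nucleus had 6655.5 UMIs and the median Drd2-type nucleus 5996, against 3337.5 for the median member. With comparison nuclei drawn nearer to the members in depth, 602 genes were higher and 846 lower than in Drd1-type nuclei, and 725 higher and 971 lower than in Drd2-type nuclei, among 9135 tested. These drawn nuclei were still deeper, at medians of 4539, 7373, 3880.5 and 8268 UMIs for Drd1-type and 4190, 7963.5, 3920 and 7932.5 UMIs for Drd2-type nuclei against 2545, 3546, 3498 and 6532 UMIs for the members. Without the post-mortem methanol library the counts were 899 higher and 1099 lower against Drd1-type nuclei, and 1054 higher and 1217 lower against Drd2-type nuclei. The log2 fold change of Ptpn14 against Drd1-type nuclei was 4.68, 6.31 without marked doublets and 5.44 with at least 4 of the 7 genes required.

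The genes with the largest rise over Drd1-type nuclei in all 4 libraries were Ptpn14, a cytosolic tyrosine phosphatase, Frmpd1, a scaffold protein, Gem, a small GTPase that restrains calcium channels, and Fam122b. Ptpn14 was at 65.6, 37.8, 49.8 and 28.0 CPM in the members, at 152, 109, 212 and 113 CPM in the in-cluster members and at 1.46, 1.5, 3.15 and 0.838 CPM in Drd1-type nuclei. Its log2 fold change was 4.68 ± 0.30 (SE, edgeR quasi-likelihood test, adjusted p = 4.06e-11), and 5.26 ± 0.33 against Drd2-type nuclei (adjusted p = 1.46e-11). Frmpd1 rose by 4.54 ± 0.23 on the log2 scale over Drd1-type nuclei and stood at 263, 200, 265 and 226 CPM in the in-cluster members. The other genes of the first 12 were Folh1, the peptidase that releases glutamate from N-acetylaspartylglutamate (4.2 ± 0.19), Shroom3 (4.15 ± 0.34), the protein kinase C gene Prkcq (4.04 ± 0.23), Mbnl3 (3.90 ± 0.60), Csrp2 (3.89 ± 0.29), the zinc finger factor Glis3 (3.78 ± 0.21), the syntrophin Sntb1 (3.78 ± 0.18) and Dock5 (3.62 ± 0.23). All of them were higher in the in-cluster than in the outlying members in every library.

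Folh1, Shroom3, Prkcq and Dock5 are also made by oligodendrocytes: in oligodendrocyte-rule nuclei Folh1 stood at 73.5, 118, 60.7 and 97.7 CPM and Dock5 at 108, 86.9, 109 and 81.2 CPM. In the in-cluster members, where the oligodendrocyte markers summed to 0.0120 to 0.0219% of UMIs against 0.0286 to 0.0419% in Drd1-type nuclei, Folh1 stood at 138, 258, 212 and 271 CPM and Dock5 at 111, 91.2, 172 and 105 CPM. Frmpd1 and Glis3 have annotated partners on the opposite strand, as does Ptpn14 (Gm26574). Against Drd2-type nuclei the first 12 also held Isl1, the collagen gene Col11a1 (3.86 ± 0.15), the adhesion gene Mdga1 (3.86 ± 0.19) and the prostaglandin E receptor gene Ptger3 (3.62 ± 0.50).

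Of the genes with the largest fall, Acvrl1, a receptor of the transforming growth factor family, had 2.59, 2.48, 2.08 and 0 CPM in the members against 25, 34, 5.66 and 11.2 CPM in Drd1-type nuclei (log2 fold change -3.70 ± 0.33). Il20ra had no UMI in the in-cluster members and stood at 13.6, 19.6, 14.5 and 20.1 CPM in Drd1-type nuclei. Ddit4l, Clspn, Tspear and Slc26a5 likewise had no UMI in the in-cluster members. Against Drd2-type nuclei the falls included Nt5e, the enzyme that makes extracellular adenosine (-2.92 ± 0.22), Gli3 (-2.44 ± 0.19), Upb1 (-3.35 ± 0.27), Casq2 (-2.39 ± 0.42) and Sp9 (-2.39 ± 0.33), a transcription factor of D2 neurons with no UMI in the in-cluster members. Oscar, Lum, Mindy4b-ps, Slc4a11 and Ido1 had 2 or 3 UMIs in all members together, and no fold is given.

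Among the receptors of dopamine and adenosine, the choice of the 3 populations fixed Drd1, Drd2 and Adora2a, which are given as values. Drd1 stood at 94.8, 113, 53.1 and 105 CPM in the in-cluster members, between the 244, 252, 269 and 209 CPM of Drd1-type nuclei, which had to carry it, and the 33.1, 28.3, 18.7 and 21 CPM of oligodendrocyte-rule nuclei. Drd2, the D2 receptor, stood at 10.8, 0, 13.3 and 0 CPM in the in-cluster members, below the 36.6, 24.4, 22.9 and 21.5 CPM of oligodendrocyte-rule nuclei in every library, and at 35.5, 56.3, 44.3 and 68.8 CPM in the outlying members. No in-cluster member held both Drd1 and Drd2, and 14 outlying members did. Adora2a, the adenosine receptor of D2 neurons, was at 5.42, 6.51, 13.3 and 0 CPM in the in-cluster members. Drd4 had 3 UMIs and Drd5 1 UMI over all members. Gpr52 had no UMI in the members, in Drd1-type or in Drd2-type nuclei, and no match in GENCODE, so its absence in the members cannot be read from these files. Of the 2 tested genes of this list, Adora1 fell by 0.78 ± 0.19 against Drd1-type nuclei (edgeR quasi-likelihood test, adjusted p = 0.00303), a call that was lost without either post-mortem library, and Gpr6, an orphan receptor of D2 neurons, fell by 3.39 ± 0.29 against Drd2-type nuclei.

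**Figure D3:**
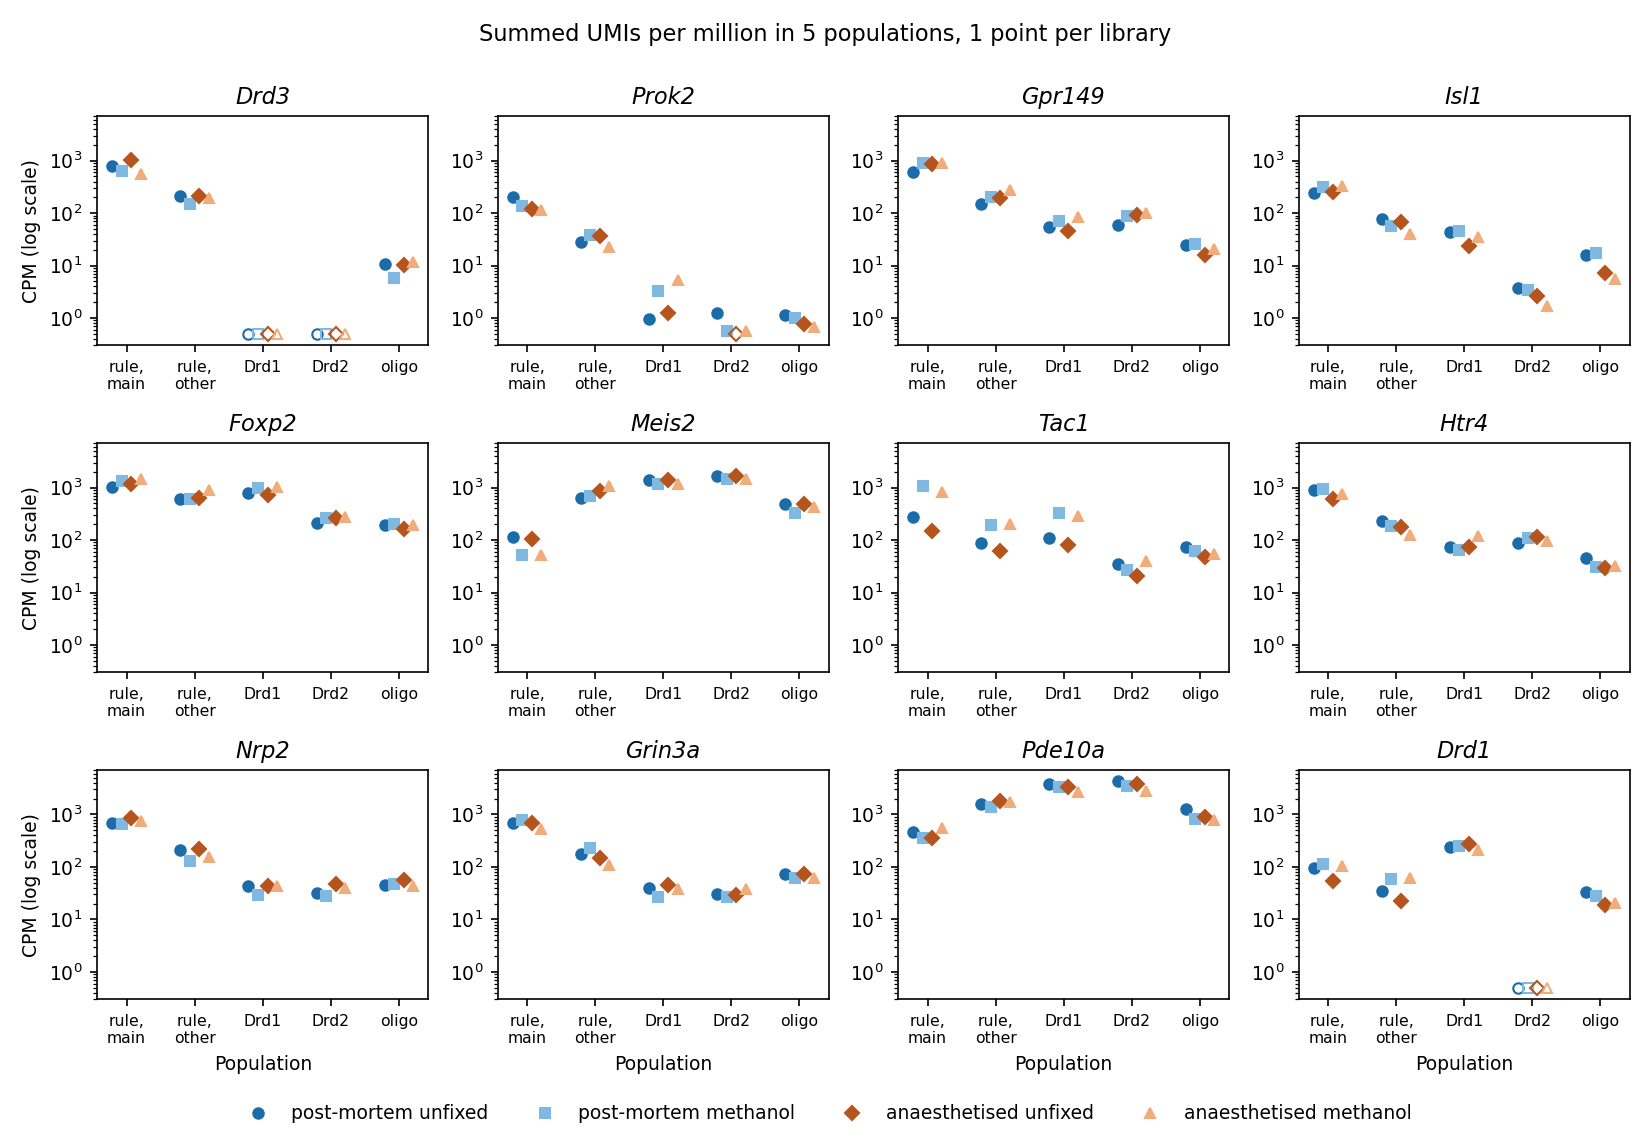
Level of 12 genes in CPM (logarithmic axis) in in-cluster members (rule, main), outlying members (rule, other), Drd1-type, Drd2-type and oligodendrocyte-rule nuclei; each point is 1 library and open points at 0.5 stand for no UMI. Isl1, Htr4, Nrp2 and Grin3a are highest in the in-cluster members, and Meis2 and Pde10a are lower there than in Drd1-type nuclei in every library.

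The transmitter genes were those of GABA neurons. Gad1 and Gad2, which encode the enzymes of GABA synthesis, were at 219, 200, 172 and 211 CPM and at 341, 308, 172 and 346 CPM in the in-cluster members. Over all members Gad1 rose by 0.42 ± 0.09 (log2, adjusted p = 0.00055) and Gad2 by 0.28 ± 0.08 (adjusted p = 0.0122) against Drd1-type nuclei in edgeR's quasi-likelihood test, and the call of Gad2 was lost without either post-mortem library. Slc32a1, the vesicular GABA transporter, differed by 0.06 ± 0.10 (edgeR quasi-likelihood test, adjusted p = 0.754). The vesicular glutamate transporter Slc17a6 was at 5.42, 8.69, 0 and 0 CPM in the in-cluster members, Slc17a8 had 1 UMI there, and Slc17a7, limited by the rule, stood at 21.7, 4.34, 13.3 and 0 CPM. Abat, for the breakdown of GABA, fell by 0.30 ± 0.08, a call that was lost with the nuclei drawn nearer in depth.

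Of the genes of striatal signalling, all 15 of those tested fell against both types of medium spiny nuclei, with a median log2 fold change of -0.76 against Drd1-type and -1.13 against Drd2-type nuclei, where the median over all genes was 0 and 13.1% and 13.9% of all genes fell. In the in-cluster members, of 10 genes of the list compared, 3 were lower and 1 higher than in Drd1-type nuclei in all 4 libraries. Of all genes compared there, 14.9% were lower and 43.3% higher. Pde1b, a calcium-activated phosphodiesterase, fell by 1.5 ± 0.10 against Drd1-type nuclei, Rasd2 by 1.73 ± 0.18, the calcium store channel gene Itpr1 by 1.36 ± 0.07 and Pde7b by 1.32 ± 0.14. The in-cluster members differed from one gene of this list to another. Itpr1 was at 127, 71.7, 39.8 and 82.8 CPM in them against 647, 675, 648 and 599 CPM in Drd1-type nuclei. Gnal, the G protein that couples the D1 receptor to adenylyl cyclase, was at 840, 793, 584 and 670 CPM against 819, 679, 707 and 626 CPM, ranges that overlap in raw CPM. The in-cluster shift given above was not taken off. Ryr3 was at 1703, 1464, 1618 and 1467 CPM against 1674, 1604, 1518 and 1388 CPM, so the calls for Gnal (-0.50 ± 0.07) and Ryr3 (-0.61 ± 0.08) came with lower values in the outlying members, 425 to 525 and 866 to 1196 CPM.

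Genes that define the striatal comparison nuclei are given as values. Pde10a stood at 471, 358, 358 and 549 CPM in the in-cluster members against 3770, 3391, 3355 and 2675 CPM in Drd1-type nuclei. Ppp1r1b, the phosphoprotein DARPP-32, was at 16.2, 13, 26.5 and 30.1 CPM against 138, 172, 112 and 126 CPM, from 18 UMIs in all. Rgs9, a regulator of G protein signalling, was at 980, 617, 650 and 534 CPM against 935, 702, 830 and 630 CPM. Pde10a and Ppp1r1b were thus far below the comparison nuclei in every library. The raw values of Rgs9 overlapped, with the in-cluster shift not taken off.

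Of 38 tested transcription factors of the ventral forebrain, 13 were higher and 12 lower than in Drd1-type nuclei. Against Drd2-type nuclei 16 were higher and 11 lower. The shares of all genes tested were 11.4% higher and 13.1% lower, and 12.5% and 13.9%. Isl1, a LIM homeobox factor of striatonigral and cholinergic neurons, was at 130, 132, 95.5 and 92.4 CPM in the members, at 244, 319, 252 and 324 CPM in the in-cluster members, at 43.2, 44.8, 23.9 and 35.7 CPM in Drd1-type and at 3.79, 3.48, 2.64 and 1.73 CPM in Drd2-type nuclei. It rose by 1.42 ± 0.10 on the log2 scale over Drd1-type nuclei (edgeR quasi-likelihood test, adjusted p = 1.22e-10) and by 5.04 ± 0.15 over Drd2-type nuclei (adjusted p = 2.45e-16), with no overlap in any library. The zinc finger factors Ikzf2 and Tshz2 rose by 1.98 ± 0.18 and 1.89 ± 0.15 over Drd1-type nuclei. Lhx6, the factor of cortical interneurons, was also called higher, but had no UMI in the in-cluster members.

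Several factors of medium spiny neurons moved the other way. Meis2 was at 114, 52.1, 106 and 52.7 CPM in the in-cluster members and at 1372, 1182, 1385 and 1176 CPM in Drd1-type nuclei, and over all members it fell by 1.16 ± 0.12 (edgeR quasi-likelihood test, adjusted p = 9.71e-08). Ebf1, a factor of D1 neurons, was at 21.7, 0, 13.3 and 0 CPM in the in-cluster members against 233, 259, 201 and 176 CPM, and fell by 2.64 ± 0.20. Foxp1 fell by 1.26 ± 0.08, the retinoic acid receptor genes Rarb and Rxrg by 1.19 ± 0.07 and 1.43 ± 0.17. Foxp2, which marks part of the D1 neurons, was at 1043, 1349, 1194 and 1475 CPM in the in-cluster members, against 779, 973, 708 and 1015 CPM in Drd1-type and 215, 259, 258 and 274 CPM in Drd2-type nuclei. It rose by 1.53 ± 0.08 over Drd2-type nuclei, and its fall of 0.22 ± 0.07 against Drd1-type nuclei (edgeR quasi-likelihood test, adjusted p = 0.0345) turned to a difference of 0.06 with each nucleus thinned to 1000 UMIs.

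**Figure D4:**
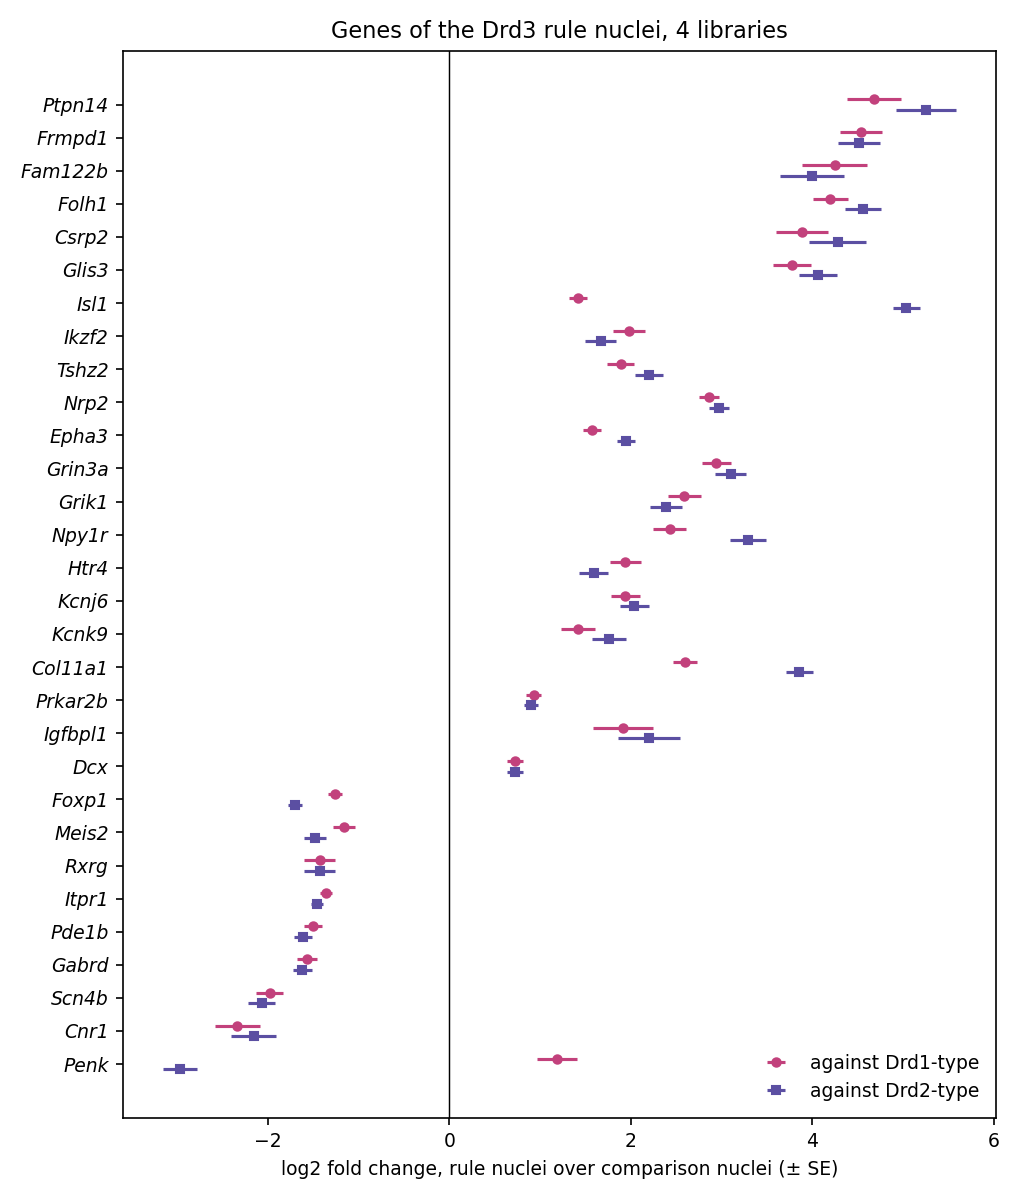
Log2 fold change of the members over Drd1-type nuclei (circles) and over Drd2-type nuclei (squares) with standard errors (horizontal axis), for 30 named genes; the vertical line marks no difference. Ptpn14 lies farthest to the right against Drd1-type nuclei at 4.68, Isl1 is at 1.42 and 5.04, Meis2 and Foxp1 lie below 0 in both, and Penk lies at 1.19 and -2.97.

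Among 18 tested neuropeptides and granins, 4 were higher and 2 lower than in Drd1-type nuclei, and 4 higher and 1 lower than in Drd2-type nuclei. Over all genes tested 11.4% were higher and 13.1% lower than in Drd1-type nuclei, and 12.5% and 13.9% than in Drd2-type nuclei. Tac1, the precursor of substance P, was at 279, 1066, 146 and 828 CPM in the in-cluster members and at 109, 321, 81.2 and 288 CPM in Drd1-type nuclei. Over all members it differed from Drd1-type nuclei by 0.20 ± 0.17 (edgeR quasi-likelihood test, adjusted p = 0.463) and rose by 2.80 ± 0.21 over Drd2-type nuclei (adjusted p = 3.84e-10). It was called higher than in Drd1-type nuclei, by 0.67, with at least 4 of the 7 genes required. Tac1 was found without Drd1 in 183 of 366 in-cluster members, with Drd1 in 48, and Drd1 without Tac1 in 25.

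The genes called higher than in Drd1-type nuclei were the granins Scg3 (0.81 ± 0.12) and Chga (0.50 ± 0.11), Nrn1 and Penk. Penk, the enkephalin precursor, was at 125, 49.9, 92.8 and 15.0 CPM in the in-cluster members, at or below the 209, 230, 95.8 and 169 CPM of oligodendrocyte-rule nuclei, and is not read as expression there. Its rise of 1.19 ± 0.22 over Drd1-type nuclei came with 190, 394, 64.0 and 286 CPM in the outlying members, and against Drd2-type nuclei it fell by 2.97 ± 0.19. Pdyn, the dynorphin precursor of D1 neurons, fell by 1.64 ± 0.21 against Drd1-type nuclei and had 5 UMIs in all in-cluster members. The prokineticin receptor genes were near absent at this depth: Prokr1 had no UMI in the members, and Prokr2 was at 0.863, 0.619, 0 and 4.2 CPM.

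Receptors of peptides and amines went both ways, with 11 of 27 tested higher and 10 lower than in Drd1-type nuclei. Against Drd2-type nuclei there were 10 in each direction. Of all genes tested, 11.4% were higher and 13.1% lower than in Drd1-type nuclei, and 12.5% and 13.9% than in Drd2-type nuclei. In the in-cluster members only 6 of these receptors were compared, with 2 higher and 2 lower than in Drd1-type nuclei in all 4 libraries. Htr4, a serotonin receptor that raises cyclic AMP, was at 445, 401, 241 and 242 CPM in the members and at 907, 947, 597 and 745 CPM in the in-cluster members, against 75.2, 64.9, 74.3 and 117 CPM in Drd1-type nuclei. It rose by 1.94 ± 0.17 (edgeR quasi-likelihood test, adjusted p = 4.42e-09) and by 1.59 ± 0.16 over Drd2-type nuclei. Npy1r, the neuropeptide Y receptor, rose by 2.43 ± 0.18 and stood at 165, 167, 133 and 218 CPM in the in-cluster members. In the other direction Cnr1, the cannabinoid receptor, was at 16.2, 4.34, 13.3 and 15.0 CPM in the in-cluster members against 130, 219, 35.9 and 87.4 CPM in Drd1-type nuclei, and fell by 2.34 ± 0.25. The histamine receptor gene Hrh3 fell by 1.70 ± 0.23, the serotonin receptor gene Htr1b by 1.55 ± 0.22 and the orphan receptor gene Gpr158 by 0.88 ± 0.11. The muscarinic receptor gene Chrm3 rose by 1.22 ± 0.16 over Drd1-type nuclei, and Htr7 and the delta opioid receptor gene Oprd1 by 2.00 ± 0.21 and 2.02 ± 0.32, but Htr7 and Oprd1 had 7 and 3 UMIs in all in-cluster members.

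After thinning of each nucleus to 2000 UMIs, Htr4 was found in 62.9%, 60.8%, 36.5% and 43.0% of members (80.2%, 84.6%, 60.6% and 67.0% before thinning), against 8.92%, 6.62%, 8.07% and 3.80% of oligodendrocyte-rule nuclei. Isl1 was found in 28.9%, 32.7%, 11.1% and 27.9% of thinned members (41.7%, 50.9%, 29.3% and 40.9% before) against 2.93%, 3.66%, 1.67% and 1.09%. Both genes were thus above the background at equal depth in every library. Thinning left 194, 217, 63 and 86 of the members, since shallower nuclei were left out. Those left out were 48, 11, 33 and 2 in-cluster members and 5, 0, 3 and 0 outlying ones. In the anaesthetised unfixed library 8 in-cluster and 55 outlying members remained, so its thinned shares describe mostly outlying members.

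Of 23 tested glutamate receptor genes, 15 fell against each of the medium spiny types, with medians of -0.40 and -0.38, while 5 and 4 rose. Among all genes tested 13.1% and 13.9% fell and 11.4% and 12.5% rose, with a median of 0. Those that rose over Drd1-type nuclei were Grin3a, Grik1, Grik3, Grik4 and Grin2c, and Grik4 turned to -0.70 with nuclei thinned to 1000 UMIs. Grin3a, a subunit that lowers the calcium permeability of NMDA receptors, was at 685, 780, 676 and 527 CPM in the in-cluster members against 39.1, 26.7, 45.3 and 38.8 CPM in Drd1-type nuclei, and rose by 2.94 ± 0.16 (edgeR quasi-likelihood test, adjusted p = 4.39e-12). The kainate receptor gene Grik1 rose by 2.59 ± 0.18 and stood at 777, 797, 862 and 760 CPM in the in-cluster members against 49.5, 39.2, 59.8 and 91.3 CPM. Grm5, the main group I metabotropic receptor of the striatum, fell by 0.72 ± 0.06 and Grin2b by 0.51 ± 0.06. Grm5 stood at 2177, 2358, 1910 and 2047 CPM in the in-cluster members against 3425, 3692, 3282 and 3476 CPM in Drd1-type nuclei.

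Of 12 tested GABA-A receptor subunits 3 rose and 5 fell, in both comparisons, while 11.4% and 12.5% of all genes tested rose and 13.1% and 13.9% fell. Gabrd and Gabra4, subunits of receptors outside synapses, fell by 1.57 ± 0.11 and 1.24 ± 0.10 against Drd1-type nuclei. Gabrd was at 21.7, 23.9, 13.3 and 0 CPM in the in-cluster members against 132, 167, 113 and 128 CPM. Gabrg1 and Gabra3 rose by 0.93 ± 0.13 and 0.79 ± 0.14, and the call for Gabrg1 was lost with nuclei thinned to 1000 UMIs.

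Potassium channel genes were divided, 11 of 27 tested higher and 11 lower than in Drd1-type nuclei, and 11 higher and 12 lower than in Drd2-type nuclei. The shares of all genes tested were 11.4% higher and 13.1% lower, and 12.5% and 13.9%. Kcnj6, a potassium channel opened by G protein-coupled receptors, was at 333, 208, 279 and 339 CPM in the in-cluster members against 36.6, 34.6, 68.0 and 39.7 CPM in Drd1-type nuclei, and rose by 1.94 ± 0.16 (edgeR quasi-likelihood test, adjusted p = 1.51e-09). The leak channel gene Kcnk9 rose by 1.42 ± 0.19, the sodium-activated channel gene Kcnt2 by 1.25 ± 0.14 and the delayed rectifier gene Kcnb2 by 0.66 ± 0.07. Kcnq5 and Kcnd2 fell by 1.13 ± 0.06 and 0.59 ± 0.06. Lrrc38 belongs to a family of BK channel subunits, and among the 4 tested BK channel genes 2 rose and 1 fell in both comparisons. The pore gene Kcnma1 fell by 0.26 ± 0.07 against Drd1-type nuclei, a call lost without the post-mortem methanol library, and stood at 534, 508, 676 and 572 CPM in the in-cluster members against 805, 796, 1044 and 906 CPM. Lrrc55, of the same subunit family as Lrrc38, rose by 1.11 ± 0.36 from 9 UMIs in the in-cluster members, and Kcnmb2 rose by 0.96 ± 0.20 but had 3 UMIs there.

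Of 24 tested sodium and calcium channel genes 4 rose and 8 fell against Drd1-type nuclei, and 3 rose and 9 fell against Drd2-type nuclei. Over all genes tested 11.4% and 12.5% rose and 13.1% and 13.9% fell. Scn4b, a sodium channel subunit of medium spiny neurons, fell by 1.98 ± 0.15 and had 4 UMIs in all in-cluster members. Cacna2d3 fell by 0.96 ± 0.08.

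Pkib, a rule gene, inhibits protein kinase A, and 12 other genes of the kinase were tested, of which 2 rose and 4 fell in both comparisons. Over all genes tested 11.4% and 12.5% rose and 13.1% and 13.9% fell. Prkar2b, the regulatory subunit RII beta, was at 483, 459, 365 and 385 CPM in the members and at 924, 1081, 1247 and 1061 CPM in the in-cluster members, against 203, 200, 206 and 210 CPM in Drd1-type nuclei. It rose by 0.93 ± 0.08 (edgeR quasi-likelihood test, adjusted p = 2.37e-09), with the members above the Drd1-type nuclei in every library. The outlying members, at 278, 210, 202 and 231 CPM, lay near the Drd1-type values. The anchoring protein gene Akap7 rose by 0.39 ± 0.13 (edgeR quasi-likelihood test, adjusted p = 0.0281), a call lost when either anaesthetised library or the post-mortem unfixed library was left out. The other inhibitors Pkia and Pkig fell by 0.40 ± 0.08 and 0.53 ± 0.09, the catalytic subunit gene Prkacb by 0.36 ± 0.10 and the anchoring protein gene Akap9 by 0.28 ± 0.09, and the calls of Prkacb and Akap9 were lost without either post-mortem library. Prkaca, Prkar1a, Prkar1b, Prkar2a and Akap5 differed from Drd1-type nuclei by -0.16 ± 0.17, 0.18 ± 0.11, 0.00 ± 0.10, 0.28 ± 0.14 and 0.16 ± 0.10, and none passed the test.

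Of 46 tested genes of cell adhesion and guidance, 12 were higher and 21 lower than in Drd1-type nuclei. Against Drd2-type nuclei 13 were higher and 23 lower. The shares of all genes tested were 11.4% higher and 13.1% lower, and 12.5% and 13.9%. Nrp2, a receptor of class 3 semaphorins, was at 366, 283, 322 and 269 CPM in the members and at 691, 660, 875 and 760 CPM in the in-cluster members, against 43.9, 28.8, 42.8 and 43.8 CPM in Drd1-type nuclei. It rose by 2.86 ± 0.11 (edgeR quasi-likelihood test, adjusted p = 5.48e-15). The ephrin receptor gene Epha3 rose by 1.57 ± 0.10 and Epha4 fell by 1.02 ± 0.08. Robo1 rose by 0.31 ± 0.06, and the ligand gene Sema3a fell by 1.17 ± 0.14 and had 4 UMIs in all in-cluster members.

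Of 19 tested genes of the extracellular matrix and the ADAMTS family, to which the rule gene Adamts19 belongs, 6 rose and 7 fell against Drd1-type nuclei. Against Drd2-type nuclei 7 rose and 4 fell. Among all genes tested 11.4% and 12.5% rose and 13.1% and 13.9% fell. Adamtsl1 rose by 2.46 ± 0.21 over Drd1-type nuclei and Tnr by 0.48 ± 0.09. Reln, the secreted glycoprotein reelin, fell by 2.52 ± 0.10 (edgeR quasi-likelihood test, adjusted p = 4.27e-14), with 13.5, 2.17, 0 and 0 CPM in the in-cluster members against 283, 292, 243 and 226 CPM in Drd1-type nuclei.

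Of 12 tested genes of young neurons, 6 rose and 1 fell in both comparisons. Their medians were 0.42 and 0.56, and the median over all genes was 0. Of all genes tested, 11.4% and 12.5% rose and 13.1% and 13.9% fell. In the in-cluster members 6 genes of the list were compared, and 5 were higher and 1 lower than in Drd1-type nuclei in all 4 libraries. Of all genes compared there, 43.3% were higher and 14.9% lower. The folds that follow are over all members, outlying ones included. Dcx, a microtubule protein of migrating neurons, was at 84.6, 95.3, 95.5 and 132 CPM in the members against 44.2, 55.0, 49.1 and 72.9 CPM in Drd1-type nuclei, and rose by 0.72 ± 0.09 (edgeR quasi-likelihood test, adjusted p = 1.01e-06). Igfbpl1 rose by 1.91 ± 0.33, Dpysl3 by 1.48 ± 0.16, Ncam1 by 0.48 ± 0.07 and Stmn1 by 0.79 ± 0.16, a call that was lost without the post-mortem methanol library. Stmn2 rose by 0.37 ± 0.12, but differed by -0.07 with nuclei thinned to 1000 UMIs. Tubb3 was the gene that fell, and Mki67, a gene of dividing cells, had 2 UMIs in the in-cluster members. Dcx was at 39.7, 48.1, 56.5 and 68.8 CPM in oligodendrocyte-rule nuclei, close to Drd1-type nuclei.

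Of 11 tested genes of mature neurons, 2 rose and 4 fell against Drd1-type nuclei, and 2 rose and 5 fell against Drd2-type nuclei. Map2 and Nefh rose by 0.48 ± 0.07 and 1.09 ± 0.39, while the kinase subunit gene Camk2b and the neuronal splicing factor gene Rbfox3 fell by 0.78 ± 0.08 and 0.33 ± 0.07, the last a call lost with the nuclei drawn nearer in depth. Of 17 tested immediate early genes, 2 rose (Fos and Jun) and 4 fell against Drd1-type nuclei, and none rose and 6 fell against Drd2-type nuclei, with Homer1 lower by 1.13 ± 0.10 against Drd1-type nuclei. Over all genes tested 11.4% and 12.5% rose and 13.1% and 13.9% fell.

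Markers of oligodendrocytes, astrocytes and interneurons were higher in the outlying than in the in-cluster members in every library, and those of cortical excitatory neurons were not. Of 7 tested oligodendrocyte markers 5 were higher and none lower than in Drd1-type nuclei, where 11.4% of all genes tested were higher and 13.1% lower. The oligodendrocyte markers summed to 0.0502 to 0.0616% of UMIs in the members, 0.0564 to 0.0759% in the outlying members, 0.0120 to 0.0219% in the in-cluster members and 0.0286 to 0.0419% in Drd1-type nuclei. The rise of Mbp (0.26 ± 0.09) turned to -0.32 without marked doublets. Astrocyte markers summed to 0.0132 to 0.0179% of UMIs in the members and 0.000752 to 0.00569% in the in-cluster members, with Gja1 and Aldh1l1 at 0. Interneuron markers summed to 0.0881 to 0.147% in the members and 0.0451 to 0.0550% in the in-cluster members, with Lhx6 and Htr3a at 0. Of 6 tested markers of cortical excitatory neurons 3 were higher, Cux2 and Rorb among them, and their list summed to 0.0175 to 0.0356% of UMIs in the members, 0.0176 to 0.0358% in the in-cluster members, 0.0170 to 0.0376% in the outlying members and 0.00810 to 0.0165% in Drd1-type nuclei. The part of these cell types in the members' folds was not tested.

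Fixation was compared within each harvest, as the ratio of CPM in the methanol library over the unfixed library, for 8977 genes with at least 50 UMIs in the members and a mean of at least 10 CPM. A gene was counted when it differed at least 2-fold in the same direction in both harvests, and 85 genes (0.947%) were higher and 161 (1.79%) lower in the methanol libraries. Among in-cluster members alone, 21 of 3783 genes were higher and 48 lower. Each ratio compares 2 libraries, and its 95% exact interval, from the UMIs of the gene, covers counting error only.

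Tac1 stood out among the peptides. It was at 148, 445, 74.7 and 321 CPM in the members, so that both methanol libraries lay above both unfixed ones. The log2 ratio of methanol over unfixed was 1.58 (1.34 to 1.83) post-mortem and 2.08 (1.59 to 2.65) anaesthetised, and in the in-cluster members 1.93 (1.63 to 2.26) and 2.45 (1.61 to 3.55). Drd1-type nuclei, at 109, 321, 81.2 and 288 CPM, moved alike, by 1.55 and 1.82. Drd2-type nuclei were at 34.4, 27.0, 20.3 and 40.7 CPM and oligodendrocyte-rule nuclei at 72.6, 61.4, 46.9 and 55.0 CPM, neither of them higher in both methanol libraries. After thinning to 2000 UMIs, Tac1 was found in 28.4%, 64.1%, 17.5% and 53.5% of members (44.5%, 82.0%, 22.2% and 72.7% before), against 10.7%, 8.36%, 7.37% and 6.25% of oligodendrocyte-rule nuclei. Most thinned members of the anaesthetised unfixed library were outlying, as given above.

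Penk went the other way in the in-cluster members, at 125, 49.9, 92.8 and 15.0 CPM from 46, 23, 7 and 2 UMIs, with log2 ratios of -1.30 (-2.11 to -0.57) and -2.40 (-5.93 to -0.23). In Drd2-type nuclei, which make enkephalin, it was higher after methanol, at 716, 2579, 462 and 2053 CPM. Over all members Penk was at 169, 296, 68.5 and 235 CPM. The members thus showed opposite directions for Penk inside and outside the cluster, and its in-cluster level was at or below that of oligodendrocyte-rule nuclei.

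**Figure D5:**
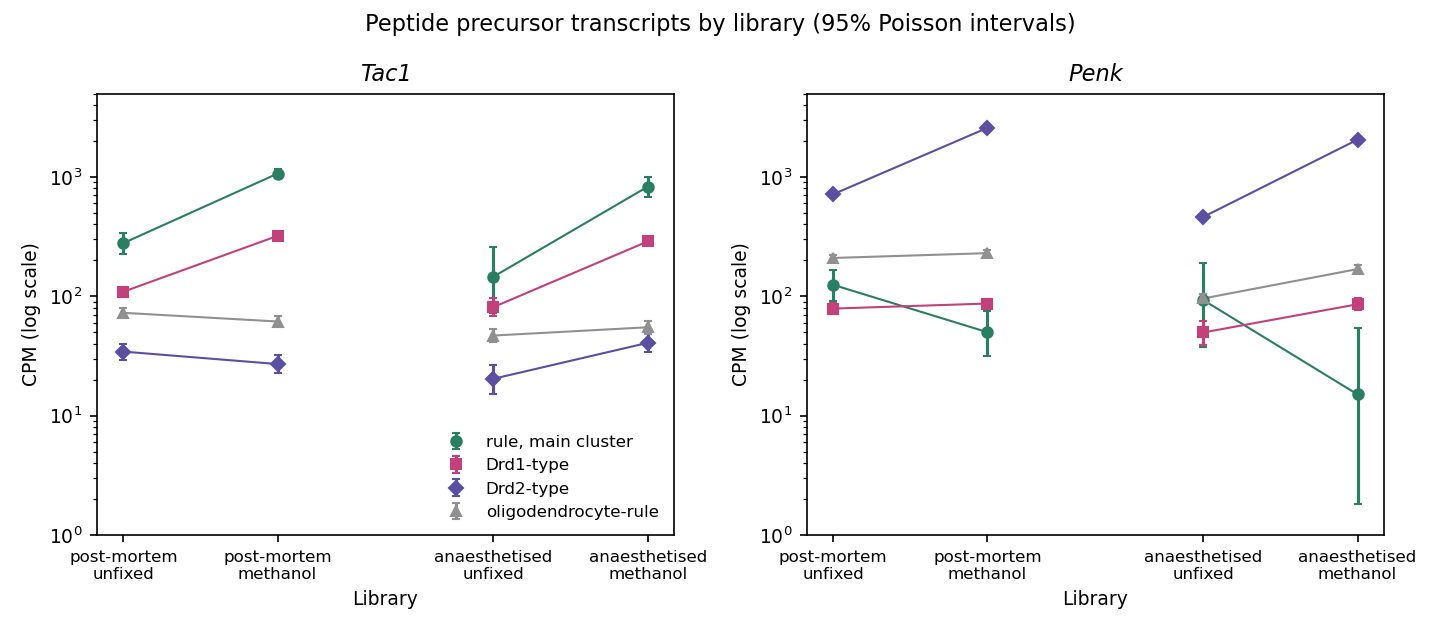
Level of Tac1 (left) and Penk (right) in CPM on a logarithmic axis in the 4 libraries, for in-cluster members, Drd1-type, Drd2-type and oligodendrocyte-rule nuclei, with 95% Poisson intervals; lines join the unfixed and the methanol library of a harvest. Tac1 goes from 279 to 1066 and from 146 to 828 CPM in the in-cluster members, and Penk from 125 to 49.9 and from 92.8 to 15.0 CPM.

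The rule sets the levels of its own genes, so their ratios are values only. Drd3 had log2 ratios of -0.43 (-0.62 to -0.24) and -0.35 (-0.66 to -0.03), Prok2 of -0.33 (-0.73 to 0.09) and -0.35 (-1.18 to 0.50), and Gpr149 of 0.43 (0.24 to 0.63) and 0.41 (0.12 to 0.71). Genes with the largest ratios included Slirp, for a mitochondrial RNA-binding protein, at 5.18, 34.7, 6.23 and 30.8 CPM.

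Lower after methanol were AY036118, at 513, 142, 504 and 88.2 CPM, Epo, at 89.8, 24.8, 102 and 22.4 CPM, Glp2r, at 92.4, 25.4, 102 and 16.8 CPM, and Macrod1, at 97.6, 24.8, 74.7 and 19.6 CPM. AY036118 overlaps Gm42418, and Epo overlaps Gigyf1, on the opposite strand. Drd1-type nuclei showed the same, with AY036118 at 417, 134, 377 and 92.7 CPM, so these ratios were not confined to the members. Of 41 compared genes of cytosolic ribosomal proteins 6 were at least 2-fold higher and 1 lower in both harvests, with median log2 ratios of 0.59 and 0.67, and of 28 respiratory chain genes 5 were higher and none lower, with medians of 0.38 and 0.46. The medians over all genes were -0.03 and -0.02, and 0.947% of all genes were higher and 1.79% lower. In the in-cluster members none of 9 ribosomal protein genes compared was at least 2-fold higher in both harvests and 1 was lower, with medians of 0.3 and 0.34. None of 13 respiratory chain genes was higher or lower there, with medians of 0.4 and 0.08. The methanol libraries were also the deeper ones, and the part of depth in these ratios was not tested.

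Harvest was compared in the same way, anaesthetised over post-mortem within each fixation, and 20 genes (0.223%) were higher and 23 (0.256%) lower in both. The share of in-cluster members among the members, 60.3% and 60.1% post-mortem and 41.4% and 44.3% anaesthetised, moved with the harvest, and its part in these ratios was not tested. Higher in the anaesthetised libraries was Ano1, a chloride channel, at 4.32, 3.71, 27.0 and 47.6 CPM. So were Shisa6, an auxiliary subunit of AMPA receptors, at 20.7, 28.5, 70.6 and 130 CPM, and the secreted factor Tafa1, at 131, 170, 463 and 517 CPM. These genes lay mostly in outlying members: the in-cluster members had 1 UMI of Ano1 and 4 of Shisa6 in all, and stood at 46.0, 69.5, 146 and 60.2 CPM of Tafa1, where the ratio in the methanol libraries turned to -0.14.

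Lower in the anaesthetised libraries was Eif2s3y, the Y chromosome gene given above, which is read as a difference in sex. Also lower were Ackr3, a scavenger receptor of chemokines, at 31.1, 18.6, 6.23 and 4.2 CPM, and Rgs12, a regulator of G protein signalling, at 121, 89.1, 43.6 and 37.8 CPM. In the in-cluster members Rgs12 was at 279, 219, 159 and 166 CPM, with log2 ratios of -0.76 (-1.81 to 0.06) and -0.38 (-1.14 to 0.27), against -1.44 and -1.22 over all members. Ackr3 was at 62.3, 54.3, 13.3 and 22.6 CPM there, from 23, 25, 1 and 3 UMIs. Both genes also rose over Drd1-type nuclei, Rgs12 by 2.98 ± 0.23 and Ackr3 by 1.97 ± 0.32 (edgeR quasi-likelihood test, adjusted p = 8.98e-10 and 5.54e-05).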

How the data were processed

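Single-nucleus RNA was counted by the authors in 4 deposited matrices of whole UMI counts per gene (32285 genes) and barcode, not normalised, with the mm10 build named in the submitters' processing notes. The aligner, the annotation, the cell calling and the strand of the counting are not given in the sources used here. The members, gene lists and tests were chosen with earlier results of these data known. Genes were named by a fixed rule: the 7 rule genes and the comparison genes as values, the 12 genes per direction with the largest called fold in the same direction in all 4 libraries, the 8 per direction with the largest paired ratios, and from each of 32 lists up to 6 of the most abundant and 6 of the most changed in each direction; genes with only a model number were not named, and other genes were chosen after their values were seen.

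Nuclei were filtered as stated at the start of the results, clustered with scanpy 1.11.5 (2000 variable genes, 40 principal components, 20 neighbours, Leiden resolution 1, without the 7 rule genes, genes of sex chromosomes that differ by sex, Malat1 and mitochondrial genes), and marked for doublets with Scrublet at an expected rate of 6% in each library. Marked doublets were kept and left out only as an alternative. Counts were summed per population and library into 12 columns, filtered with filterByExpr, scaled by trimmed means and tested with edgeR 4.0.16 (R 4.3.3), and 16 genes that define the populations were kept as values only. The script was tested on simulated data. For harvest and fixation, 0.5 counts were added to each sum, 50 UMIs over the 4 libraries and a mean of 10 CPM were required and no test was made, since each group has 1 library. Gene positions came from GENCODE mouse release 21 and matched 32158 genes. Alternatives were other scaling, DESeq2 1.42.0, other filters, each library left out, doublets left out, other numbers of rule genes, comparison nuclei drawn nearer to the members in depth and thinning. Some genes, including 1 of each set of 5 genes that define the comparison nuclei, are not reported here.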

Additional observations from a re-analysis of the deposited data

Results flagged for a closer look

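Some genes went at least 2-fold one way in 1 pair of libraries and at least 2-fold the other way in the other pair; these differences between pairs were not tested, and most UMIs of these genes lay in outlying members. With fixation, Bmpr1b had log2 ratios of methanol over unfixed of -1.62 post-mortem and 2.06 anaesthetised, at 32.8, 10.5, 4.15 and 21 CPM. Sfta3-ps had ratios of 1.11 and -2.32 with fixation, and of 1.27 (unfixed) and -2.16 (methanol) with harvest, at 15.5, 34, 37.4 and 7 CPM. Slc1a3, an astrocyte glutamate transporter, had fixation ratios of -1.08 and 1.09, at 30.2, 14.2, 24.9 and 54.6 CPM.

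With harvest, as anaesthetised over post-mortem, Cpa6 had log2 ratios of -3.26 unfixed and 1.70 methanol, from 11, 18, 0 and 26 UMIs, of which 5 in the post-mortem unfixed library lay in the in-cluster members. Tacr1, the substance P receptor, had ratios of 2.98 and -1.03, at 2.59, 29.7, 22.8 and 14 CPM, with no UMI in the in-cluster members. Apod had ratios of -1.65 and 1.00, at 35.4, 32.2, 10.4 and 64.4 CPM, with 13 of 41, 8 of 52, 2 of 5 and 1 of 46 UMIs in the in-cluster members. The main cluster also held 97 nuclei that the rule does not take, with no Drd3 UMI and at least 3 of the other rule genes, 35, 45, 9 and 8 by library.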

How the results depend on the processing

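No paired analysis was possible for harvest or fixation, because each group is 1 library and the labels give no replicate numbers that groups share. The sums of the populations were paired within a library, which was the block of the main test. Leaving out each library in turn gave 899 to 1446 genes higher and 1099 to 1687 lower than in Drd1-type nuclei, and 1054 to 1574 higher and 1217 to 1728 lower than in Drd2-type nuclei, the lowest of each without the post-mortem methanol library. Drawing comparison nuclei nearer to the members in depth, which left them deeper, gave 602, 846, 725 and 971 genes in the same order, of 9135 tested. Thinning each nucleus to 1000 UMIs, an alternative chosen after seeing the data, gave 626, 857, 664 and 887 of 6319 tested. Other scaling and DESeq2 kept each count within 1.5 times. Of the named genes' log2 fold changes, thinning to 1000 UMIs turned Foxp2 (0.06), Stmn2 (-0.07), Kcnip4 (-0.22), Gabra2 (0.19) and Grik4 (-0.70) against Drd1-type and Gria2 (0.30) and Grik4 (-0.19) against Drd2-type nuclei. Requiring 4 of the 7 genes turned Kcnmb4 (-1.14), Grik4 (-0.14), Sema5b (-0.51) and Shisa6 (-0.96) against Drd1-type and Kcnmb4 (-1.12) and Shisa6 (-0.21) against Drd2-type nuclei. Without marked doublets Mbp turned to -0.32 and -0.26. The cause of these changes was not tested. Drawing nuclei nearer in depth took the call from 71 of 478 gene results, DESeq2 from 32 of 588, and leaving out the post-mortem methanol library from 66 of 580.

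Counts of genes at least 2-fold apart with fixation, 85 higher and 161 lower, went to 578 and 921 with a minimum of 1 UMI, to 47 and 97 without marked doublets, to 38 and 70 with 4 genes required, to 21 and 48 in the main cluster only (added after seeing the data) and, for the higher genes, to 56 with 2 counts added. Those with harvest, 20 higher and 23 lower, went to 1483 and 414 with a minimum of 1 UMI, and the higher ones to 35 with a minimum of 20 UMIs, to 13 without marked doublets and to 11 both with 4 genes required and in the main cluster only, where Tafa1 turned to -0.14; the lower ones went to 8 with 2 counts added and to 41 with 4 genes required. The members' share of nuclei, by library, was 1.05%, 1.26%, 0.196% and 0.405% with 4 genes required, 3.63%, 4.39%, 2.00% and 3.82% with 2, 0.995%, 1.30%, 0.110% and 0.518% after thinning to 2000 UMIs, 1.04%, 1.27%, 0.230% and 0.510% in the main cluster only, and 1.49% in the post-mortem unfixed library without marked doublets. Of the in-cluster members, 41 and 39 nuclei came from the anaesthetised libraries, where 1 UMI stands for 13.3 and 7.52 CPM, and this limits what can be read of rare genes there.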

Other observations

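The main cluster held 222 nuclei with no Drd3 UMI. Pooled over libraries, Prok2 was at 170 CPM in them against 156 CPM in the in-cluster members, Isl1 at 275 against 288 CPM, Foxp2 at 1328 against 1245 CPM, Tac1 at 685 against 689 CPM, Nrp2 at 681 against 699 CPM and Grin3a at 674 against 706 CPM. The rule genes Gpr149 and Adamts19 were at 584 against 786 CPM and at 96.9 against 167 CPM. The in-cluster members had to carry at least 3 rule genes and these 222 nuclei did not, so the rule in part sets such levels, that of Prok2 included. Adora2a was low in both, at 13.2 against 5.78 CPM, and is not read as a difference. A further 62 nuclei of the cluster had Drd3 and fewer than 3 of the 7 rule genes. Outside the cluster 166 nuclei had at least 3 of the other rule genes and no Drd3 UMI.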
